A study of Mus musculus with 10 samples.

Results

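The long noncoding RNAs (lncRNAs) described here are 81 genes that were well expressed in Ly6G+ cells of mice after myocardial infarction (MI). A gene was taken when the GENCODE M39 annotation of the GRCm39 mouse genome gives it the biotype lncRNA, when it lies on an autosome, and when its mean over the 10 libraries was at least 50 normalized counts, that is, reads divided by the size factor of the library. The rule left 81 of the 5490 autosomal lncRNA genes in the table, which holds 28185 genes in all. At the same minimum, 5472 of 17888 coding genes would be kept. The lncRNAs were chosen by their mean level over all libraries, so their levels are a description. Just inside the minimum lay 4833438C02Rik with a mean of 53.1 and Gm56997 with 50.1, and just outside lay A530013C23Rik with 49.6 and Gm7008 with 49.2.

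Cells were taken on day 3 from male C57Bl/6J mice of 12 to 16 weeks whose left coronary artery had been ligated, so all 4 groups come from infarcted animals and none from uninjured ones. The MI group (n = 3 libraries) holds Ly6G+ cells from the dissociated infarcted left ventricle, and MI + MSC (n = 3) the same from mice that received syngeneic bone marrow mesenchymal stromal cells (MSCs) under the skin at 3 sites. Blood (n = 2) and Blood + MSC (n = 2) hold Ly6G+ cells of peripheral blood from untreated and MSC-treated mice. Ly6G+ cells were enriched on magnetic columns, RNA was depleted of ribosomal RNA, and reads were counted per strand. The labels give each group a batch name of its own, so group and batch cannot be told apart, and they do not tie libraries to animals, so the p-values below measure the spread between libraries. Values of single libraries are given in the order 13, 19 and 20 for MI, 15, 17 and 18 for MI + MSC, 21 and 22 for Blood, and 23 and 24 for Blood + MSC.

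LncRNAs are transcripts longer than small RNAs that are not known to encode a protein. Some stay in the nucleus and build structures there, such as Malat1 in nuclear speckles and Neat1 in paraspeckles. Others are mainly known as precursors, whose exons or introns release microRNAs (miRNAs) or small nucleolar RNAs (snoRNAs), or as antisense RNAs that silence neighbouring genes, as in imprinted domains. In neutrophils, which live briefly, some lncRNAs are known to control cell survival, Morrbid among them.

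Libraries differed in depth from 148594 reads (MI 13) to 8602711 (Blood + MSC 24), and MI 13 and Blood 21 (268860 reads) stood apart from the rest, which held 665946 or more. In these libraries 1 read equals 8.40 and 7.07 normalized counts, against 0.168 to 2.30 in the others, and 54 and 73 of the 81 lncRNAs had more than 3 reads there. Across all 10 libraries, 48 of the 81 had more than 3 reads in each and 4 were listed at 0 in at least 1. Neutrophil markers were present, 14 of 15 with a read in MI 13 and 15 of 15 in every other library, with sums of 2664 to 14223 normalized counts in heart and 17665 to 57257 in blood. Ly6g itself stood at 4.75 to 26.9 in heart and 41.2 to 644.5 in blood. Heart libraries also held cardiomyocyte markers (12 of 12, sums of 3419 to 25555, against 51.7 to 98.9 in blood). Their endothelial sums were 650.3 to 2833, against 49.6 to 756.0 in blood, and mural sums 294.0 to 1252, against 63.0 to 98.9. Macrophage and monocyte sums were 2790 to 11916 in heart and 5857 to 8217 in blood. In MI 13, MI 20, MI + MSC 15 and MI + MSC 18 they exceeded the neutrophil sum. In MI 19, MI + MSC 17 and every blood library they lay below it. The lists differ in length, so this does not give cell shares. Blood 21 held platelet markers at a sum of 29201, against 512.7 to 1784 in the other libraries. In bulk RNA, fewer cells of a type and less RNA per cell cannot be told apart.

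Malat1 led in 10 of 10 libraries. It is a nuclear speckle RNA that is abundant in most mammalian cells, transcribed at chr19:5845717-5853602, minus strand, and stood at 9657, 8292 and 8881 normalized counts in heart without MSCs and 7059, 9574 and 5670.2 with them, and at 12513 and 10037 in blood without MSCs and 9594 and 7228 with them. Its mean of 8850.5 was 3.86 times that of Neat1, the scaffold of paraspeckles, and it took 37.8% to 54.0% of the reads of the 81 lncRNAs in a library. Neat1 stood at 2244, 929 and 1407 normalized counts in heart without MSCs and 1603, 2238 and 950.5 with them, and at 3073 and 2262 in blood without MSCs and 4329 and 3865 with them. Every heart library was thus below every blood library in Neat1, although the highest heart value (2244, MI 13) and the lowest blood value (2262, Blood 22) almost touched. In limma neither gap was called. Neat1 had log2 fold changes of -0.88 ± 0.52, adjusted p = 0.207 in MI against Blood and -1.44 ± 0.52, adjusted p = 0.0866 in MI + MSC against Blood + MSC.

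The other lncRNAs lay far below these 2 RNAs. The median of the means over the 81 was 84.7, and 52 had a mean under 100. The median of the coding genes at or above the minimum was 128.8. Ranks 3 to 12 by mean were held by Mir142hg, Gm10076, Norad, Dleu2, Oip5os1, Gm56906, Gm26740, Chaserr, Gm56517 and Mirt1. Norad, an RNA that binds Pumilio proteins, stood at 286, 442 and 449 normalized counts in heart without MSCs and 449, 354 and 467 with them, and at 339 and 261 in blood without MSCs and 244 and 227 with them, all within 227 and 467. Oip5os1, also known as Cyrano and carrying a site for miR-7, stood at 294, 406 and 357 normalized counts in heart without MSCs and 270.4, 280.1 and 300.3 with them, and at 629 and 201 in blood without MSCs and 258 and 233 with them, with Blood 21 alone above the rest. Per kilobase of exon the order changed. Malat1 stayed first at 1122 normalized counts per kb, Gm10076 followed at 266.3 and then Mir142hg at 186.1, while Neat1 stood at 102.2 and the lowest values were those of the long Kcnq1ot1 and Mir99ahg at 1.85 and 1.44. Gm10076 is uncertain, because 311 bases of its transcript are 99.4% identical to the ribosomal protein gene Rpl41.

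**Figure D1:**
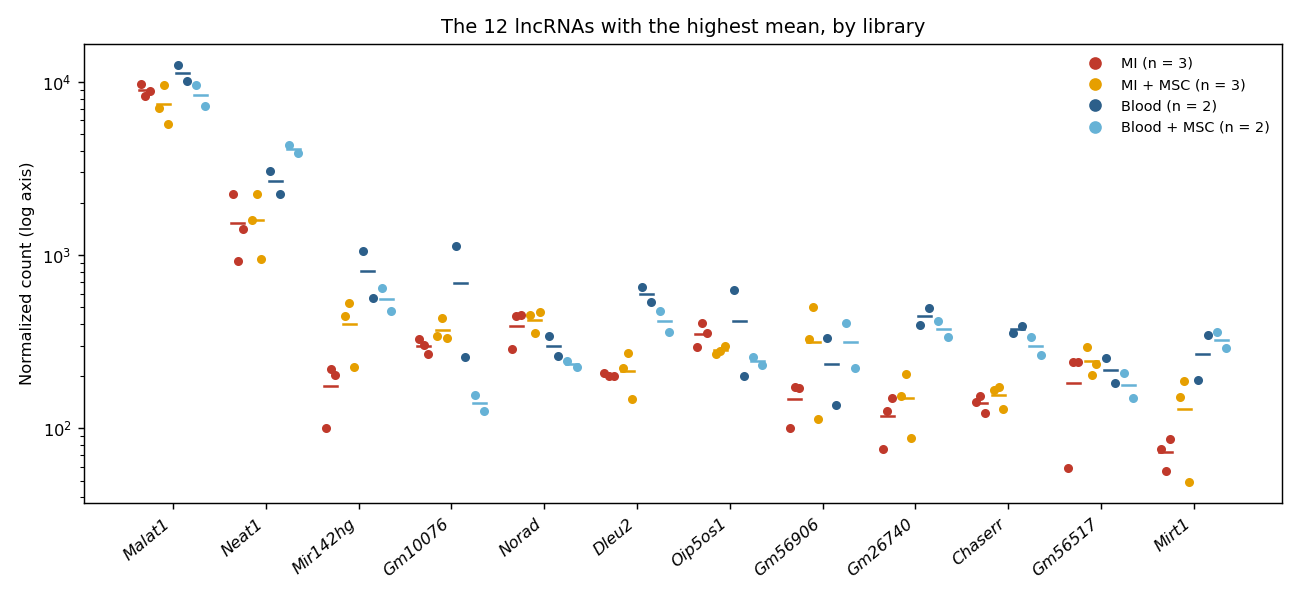
Normalized counts (log axis) of the 12 lncRNAs with the highest mean, with 1 point per library and a bar at the mean of each group. Malat1 and Neat1 stand above the other 10, and in Neat1, Dleu2, Gm26740 and Chaserr the heart libraries (red and orange) lie below the blood libraries.

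Each of the 81 loci was put in 1 class, the first that applied of snoRNA host, miRNA host, overlap with a coding gene on the same strand, overlap antisense to one, start within 1000 bases of an oppositely oriented coding gene, and intergenic. In that order the classes held 4, 9, 7, 22, 3 and 36 loci. Across classes, 38 of the 81 overlapped a coding gene and 11 started within 1000 bases of the start of one. The median transcript length was 1495 bases, against 1155 for the other 5409 autosomal lncRNA genes in the table and 3723 for tested coding genes. Single-exon transcripts made up 21 of the 81 (25.9%), against 14.5% and 1.85%. Of the 81, 4 (AI504432, Gm56878, Gm57402 and Gm56517) start within 1000 bases after the end of a coding gene on the same strand, where reads that run past that end would be counted for the lncRNA. Gm56517 starts 821 bases after Arf6. Group means of at least 50 were reached by 56 and 62 lncRNAs in heart without and with MSCs, by 68 and 62 in blood, and by 39 in all 4 groups. Hmga2-ps1, Gm28609 and Gm6634 reached it in Blood only, Gm57414 in MI only, and A630001O12Rik and 4833438C02Rik in MI + MSC only. These 6 entered through 1 group, so a difference between groups was built into their choice. Others reached the minimum in groups of 1 tissue only. Among them were Mir99ahg, AU020206, 4930430E12Rik, E230013L22Rik, Gm17024 and Gm49774 in heart, and Gm56918, E230001N04Rik and Gm35853 in blood. That choice favoured a gap between heart and blood, so their p-values for it, and their place in the counts below, are a description. The differences of the 6 that entered through 1 group are given without a test. The counts of called lncRNAs below still include Gm57414 (both heart and blood comparisons) and Gm28609 (MI against Blood). The MSC counts, called or at an unadjusted p under 0.05, include A630001O12Rik and 4833438C02Rik (heart) and Gm28609 and Gm6634 (blood).

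Reads on all autosomal lncRNA genes made up 5.95%, 2.72% and 2.53% of a library in heart without MSCs and 2.41%, 3.78% and 2.33% with them, and 2.60% and 1.92% in blood without MSCs and 2.44% and 2.36% with them. The highest share was in MI 13, the shallowest library, where the 81 lncRNAs held 24.1% of the lncRNA reads, against 40.03% to 60.8% in the others. Olfactory and vomeronasal receptor genes, which sensory neurons of the nose use, took 1.12% of the reads in MI 13, 0.365% in MI + MSC 17, 0.0822% to 0.209% in the other heart libraries and 0.0140% to 0.0280% in blood, and the part of such reads in the share was not tested. The mean share was 3.28% ± 1.41 (SD, n = 6) in heart and 2.33% ± 0.288 (SD, n = 4) in blood, a difference of 0.957 percentage points (two-sided exact permutation test, p = 0.143). With Malat1 and Neat1 left out, each heart library lay above each blood library, by 1.02 percentage points on average (p = 0.00952 in the same exact permutation test, the smallest it can give here). The nearest libraries almost touched, MI 20 at 1.78% and Blood 21 at 1.77%, while MI 13 stood at 4.99%. Without MI 13, a check chosen after the data were seen, the difference was 0.538 percentage points (exact permutation p = 0.0159, again the smallest possible). For the 81 lncRNAs alone the sign turned, with -0.110 percentage points (exact permutation p = 0.4). With MSCs the share was 0.895 percentage points lower in heart and 0.139 higher in blood (exact permutation p = 0.5 and p = 1.0), where 3 against 3 cannot go below 0.1 and 2 against 2 not below 0.333. Both directions turned with 1 library left out, to 0.212 in heart without MI 13 and to -0.198 in blood without Blood 22.

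The comparison of heart with blood asks which lncRNAs differ between Ly6G+ cells recovered from infarcted tissue and those in circulation. In MI against Blood, 10 of the 81 were higher and 27 lower in heart (limma, with an adjusted p under 0.05 and a log2 fold change of 0.5 or more in size). Among all 11549 genes tested, 21.2% were called higher and 13.5% lower (34.7% in either direction). The median log2 fold change was -0.64 over the 81 lncRNAs and 0.15 over all genes tested. Without both shallowest libraries 16 were higher and 20 lower, beside 2299 and 2119 of all genes tested, and the median of the 81 lay 0.36 below that of all genes, in place of 0.79. MI + MSC against Blood + MSC compares other libraries, but both comparisons take their spread from 1 fit to all 10 libraries. Here 9 were higher and 12 lower, against 8.23% and 5.85% of all genes (14.1% in either direction), with medians of -0.13 and 0.09. Called log2 fold changes without MSCs ran from 1.20 (Lncpint) to 5.70 (Gm57414) upward and from -1.09 (A330023F24Rik) to -4.25 (Gm28609) downward. All 19 lncRNAs called in both comparisons had the same direction in both, 7 higher and 12 lower in heart, and 35 of the 37 called without MSCs had the same sign with MSCs. Among the 19 were lncRNAs whose choice favoured 1 tissue, such as Gm57414, 4930430E12Rik, AU020206 and Gm56918, so this match is a description. Other tools gave similar counts without MSCs, 39 in edgeR (35.5% of all genes), 40 in DESeq2 (34.4%) and 29 in voom with sample weights (22.4%), and more with MSCs, 41 (32.0%), 39 (29.0%) and 48 (42.3%). Leaving out 1 Blood + MSC library cut the second count from 21 to 4 (without 23) or 8 (without 24), as that arm then rests on 1 library, and leaving out both shallowest libraries raised it to 45. Of all 11549 genes, 266, 508 and 4764 were called in these 3 fits.

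**Figure D2:**
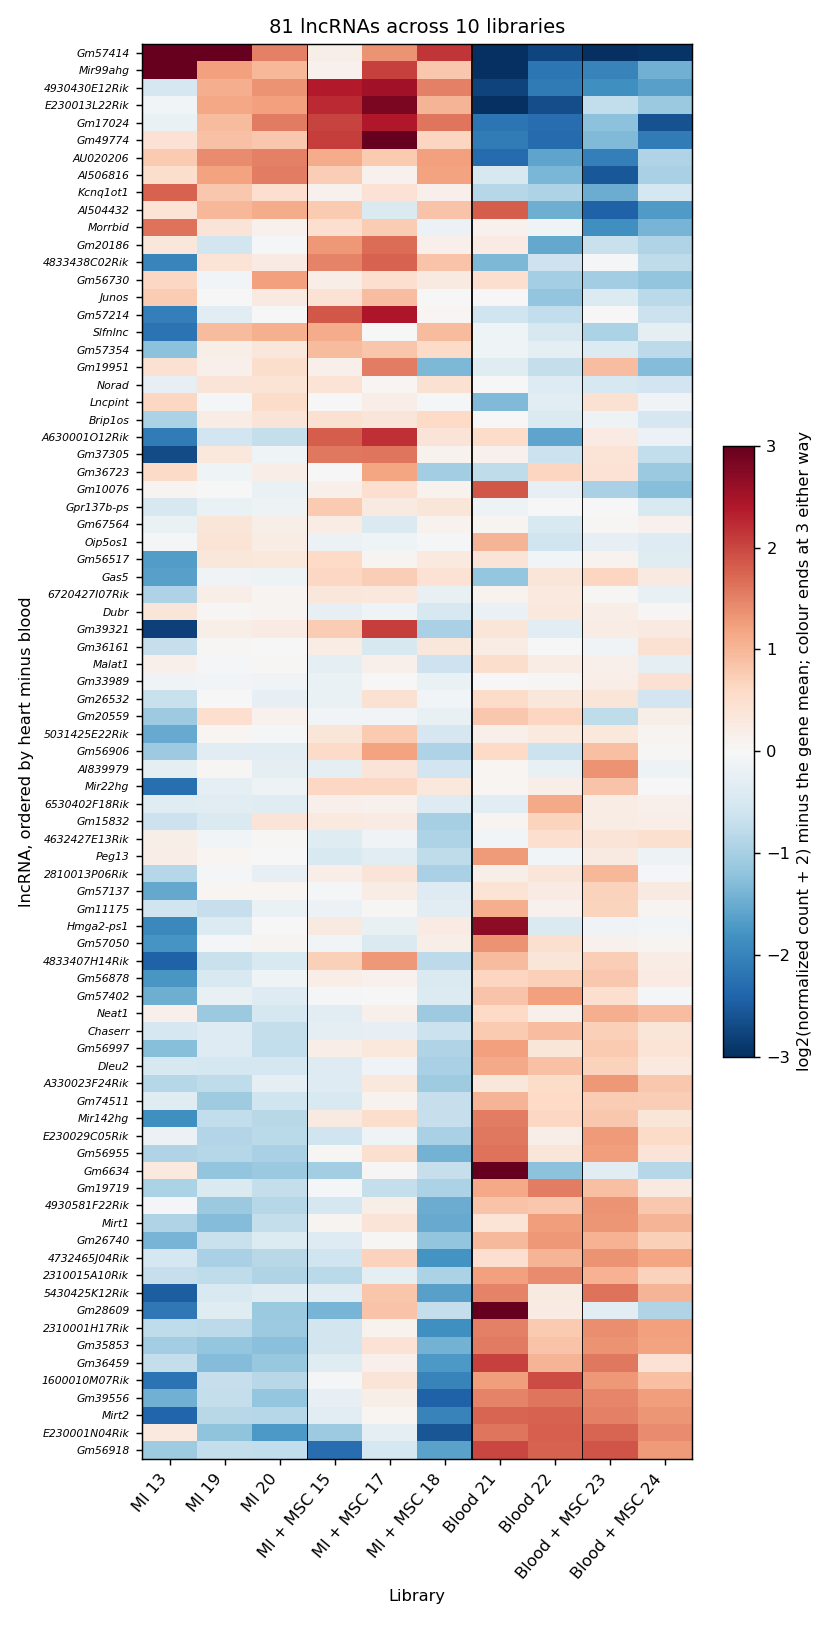
The 81 lncRNAs (rows, ordered by the mean of the heart libraries minus that of the blood libraries) in the 10 libraries (columns). Colour gives log2(normalized count + 2) minus the mean of the gene. Blocks at the top and bottom separate heart from blood, MI 13 shows the lowest value of many rows, and Gm6634 and Gm28609 are high in Blood 21 alone.

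Counted over libraries, 9 lncRNAs were higher in each of the 6 heart libraries than in any of the 4 blood libraries and 24 were lower, where 19.1% and 14.0% of all genes tested separate that way. The 9 were Gm57414, Mir99ahg, 4930430E12Rik, E230013L22Rik, Gm17024, Gm49774, AU020206, AI506816 and Kcnq1ot1. The 24 included Neat1, Dleu2, Chaserr, Gm26740, Mirt1, Mirt2 and Gm56918. Gm57414, Mir99ahg, 4930430E12Rik, E230013L22Rik, Gm17024, Gm49774 and AU020206 reached the minimum in heart only, and Gm56918 in blood only. That choice favoured their separation, so these counts are a description.

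**Figure D3:**
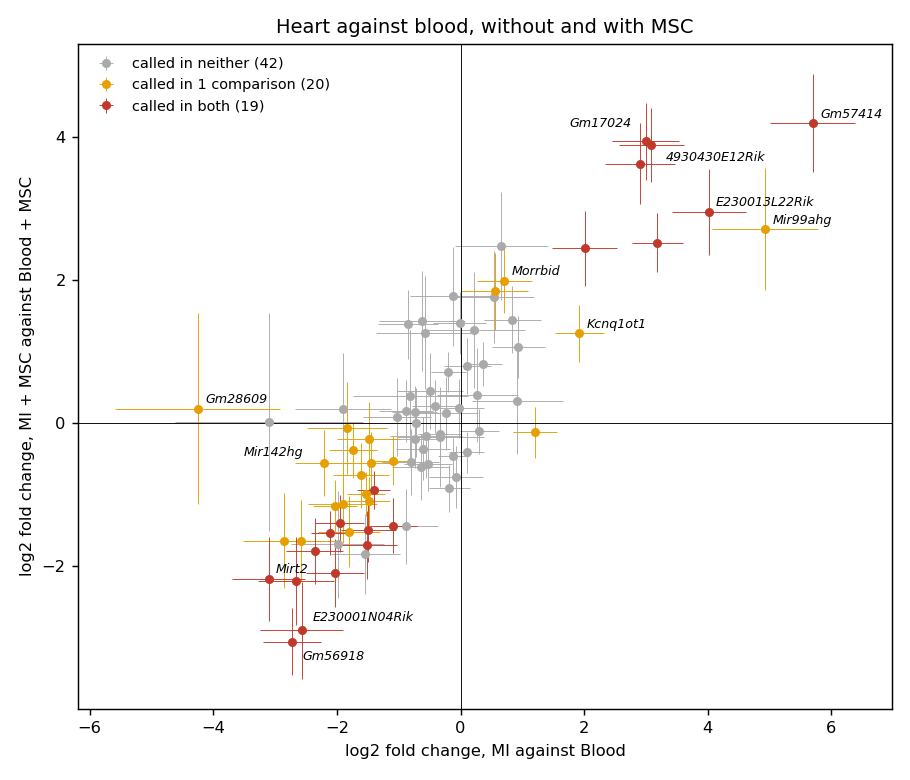
Log2 fold change of each of the 81 lncRNAs in MI against Blood (x axis) and in MI + MSC against Blood + MSC (y axis), with bars for 1 standard error. The 19 lncRNAs called in both comparisons (red) lie at the upper right and lower left, and Gm28609 lies on the left with a y value near 0.

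The largest gap belonged to Gm57414, an intergenic lncRNA at chr11:31495732-31499661, plus strand. It stood at 210.1, 155 and 49.4 normalized counts in heart without MSCs and 18.3, 43.6 and 77.3 with them, and at 0 and 0.650 in blood without MSCs and 0.263 and 0.337 with them. The blood libraries all had 3 reads or fewer, so the gap is a lower bound. Set against 3 reads per library, MI was at least 11.9-fold higher than Blood and MI + MSC at least 71.8-fold higher than Blood + MSC. It reached the minimum through MI alone, so this gap is a description. Its nearest coding gene, Bod1, lies 114333 bases away and had 2.23 ± 0.47, adjusted p = 0.00533 and 0.99 ± 0.47, adjusted p = 0.180 (limma). Within the heart groups the values ran from 18.3 to 210.1, beside cardiomyocyte marker sums of 8600 to 25555 in MI and 3419 to 13460 in MI + MSC, and the part of those cells in it was not tested. Without MI 13 its mean falls under the minimum of 50.

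Mir99ahg, a long gene that holds the miRNA genes Mir99a, Mirlet7c-1 and Mir125b-2, stood at 361, 53.8 and 45.3 normalized counts in heart without MSCs and 23.7, 96.4 and 39.3 with them, and at 0 and 3.25 in blood without MSCs and 3.94 and 6.73 with them. MI 13 alone gave the high end of the heart values, and without it the mean of Mir99ahg falls under the minimum of 50. The log2 fold change was 4.93 ± 0.85, adjusted p = 0.00192 in MI against Blood (limma), 3.29 without both shallowest libraries, and 2.71 ± 0.85, adjusted p = 0.0558 with MSCs. Endothelial marker sums were 2572 to 2833 in MI, 650.3 to 1165 in MI + MSC and 49.6 to 756.0 in blood, and mural marker sums 1027 to 1252, 294.0 to 711.8 and 63.0 to 98.9. Their part in the Mir99ahg values was not tested. Mir99ahg reached the minimum in heart only, so its p-values for heart against blood are a description.

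A second set was higher in heart and had its highest values in MI + MSC. 4930430E12Rik, an intergenic lncRNA at chr4:6352105-6357530, minus strand, stood at 42, 129.8 and 155 normalized counts in heart without MSCs and 324, 356 and 176 with them, and at 7.07 and 12.3 in blood without MSCs and 15.2 and 18.2 with them. The groups did not overlap, and the log2 fold changes were 3.09 ± 0.52, adjusted p = 0.00165 without and 3.88 ± 0.52, adjusted p = 0.00115 with MSCs (limma). The nearest coding gene, Sdcbp, starts 8017 bases away and had -1.29 ± 0.51, adjusted p = 0.0716 and 0.09 ± 0.51, adjusted p = 0.928. It was not called in either comparison. 4930430E12Rik reached the minimum in heart only, so its p-values here are a description.

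Gm17024, E230013L22Rik and Gm49774 overlap coding genes, and these neighbours moved the same way or did not pass. The lncRNAs themselves reached the minimum in heart only, so their p-values and calls here are a description. Gm17024 lies within Ifrd1 on the same strand, so that reads of both cannot be cleanly told apart. It stood at 33.6, 77.9 and 119 normalized counts in heart without MSCs and 165, 216 and 123 with them, and at 7.07 and 6.50 in blood without MSCs and 15.5 and 4.71 with them. Its log2 fold change with MSCs was 3.93 ± 0.54, adjusted p = 0.00127, and that of Ifrd1, a transcriptional coregulator, was 3.53 ± 0.53, adjusted p = 0.00206 (limma). E230013L22Rik, antisense to the GTPase gene Rab20, stood at 25.2, 62.5 and 65.4 normalized counts in heart without MSCs and 134, 202 and 56.9 with them, and at 0 and 2.60 in blood without MSCs and 15.2 and 11.4 with them. Here the log2 fold changes without and with MSCs were 4.02 ± 0.60 and 2.95 ± 0.60 for the lncRNA and 1.49 and 2.38 for Rab20, all called by limma. Gm49774 is antisense to Hmga1, a chromatin architectural factor, and starts 21 bases from its start. It stood at 50.4, 69.2 and 66.4 normalized counts in heart without MSCs and 163, 309.9 and 59 with them, and at 7.07 and 5.85 in blood without MSCs and 13.7 and 7.07 with them, with a log2 fold change of 3.62 ± 0.57, adjusted p = 0.00248 with MSCs (limma), while Hmga1 had 1.48 ± 0.47, adjusted p = 0.0553 and was not called.

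AU020206 went the other way from the coding gene around it. It reached the minimum in heart only, so its p-values here are a description. It lies antisense to Akap13, which encodes a kinase anchoring protein, and stood at 75.6, 118 and 126 normalized counts in heart without MSCs and 96, 75.8 and 104 with them, and at 7.07 and 13 in blood without MSCs and 8.93 and 22 with them. Its log2 fold change was 3.18 ± 0.41, adjusted p = 0.000357 without and 2.52 ± 0.41, adjusted p = 0.00307 with MSCs, whereas Akap13 had -1.80 ± 0.34, adjusted p = 0.00298 and -1.56 ± 0.34, adjusted p = 0.0126 (limma). Among the 33 lncRNAs called in MI against Blood whose nearest coding gene was tested, that gene was called in the same direction for 13, in the other direction for 2 and not called for 18. In MI + MSC against Blood + MSC the counts were 6, 1 and 13 of 20. Over all 69 lncRNAs with a tested nearest coding gene, that gene was called for 24 without and 14 with MSCs. Of all genes tested, 34.7% and 14.1% were called.

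Kcnq1ot1, the paternally expressed antisense RNA of the Kcnq1 imprinted domain, stood at 487, 249 and 200.2 normalized counts in heart without MSCs and 155, 193 and 157 with them, and at 77.7 and 72.8 in blood without MSCs and 48.9 and 97.1 with them. MI 13 was highest and the groups did not overlap. It had a log2 fold change of 1.92 ± 0.40, adjusted p = 0.00475 in MI against Blood and 1.25 ± 0.40, adjusted p = 0.0568 with MSCs, the latter not called (limma). Peg13, the other imprinted-domain lncRNA among the 81, had -0.53 ± 0.38, adjusted p = 0.302 and -0.57 ± 0.38, adjusted p = 0.334 and was called in neither. Of the 6 tested RNAs on the imprinted-domain list, 3 (Airn, Kcnq1ot1 and Snhg14) were higher in MI than in Blood, against 21.2% of all genes, and 0 lower. All 3 were highest in MI 13, and with MSCs 0 of the 6 were called, against 14.1% of all genes.

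Mirt1 and Mirt2, named as myocardial infarction associated transcripts, were among the lncRNAs lower in heart without MSCs. Mirt2 stood at 16.8, 52.9 and 52 normalized counts in heart without MSCs and 75.7, 98.7 and 22.4 with them, and at 325 and 329 in blood without MSCs and 276 and 241 with them. It had a log2 fold change of -3.11 ± 0.59, adjusted p = 0.00306 without and -2.17 ± 0.59, adjusted p = 0.0324 with MSCs (limma). It is annotated antisense to Spatc1, whose own log2 fold change was -2.96 ± 0.76, adjusted p = 0.0131 in MI against Blood and -1.91 ± 0.76, adjusted p = 0.114 with MSCs. Mirt1 stood at 75.6, 56.7 and 86.5 normalized counts in heart without MSCs and 151, 188 and 48.8 with them, and at 191 and 344 in blood without MSCs and 359 and 291 with them. Its log2 fold change was -1.81 ± 0.50, adjusted p = 0.0181 without MSCs, and -1.51 ± 0.50, adjusted p = 0.0650 with MSCs was not called (limma). Neutrophil marker sums were likewise lower in heart. Without MSCs 13 of 15 neutrophil markers were called lower in heart, against 13.5% of all genes, and with MSCs 4 of 15, against 5.85%. The part of the neutrophil share in these lncRNAs was not tested.

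Gm56918 is a single-exon lncRNA antisense to Lrg1 and was lower in heart in both comparisons. Gm56918 and E230001N04Rik reached the minimum in blood only, so their p-values here are a description. Lrg1 encodes a secreted glycoprotein that neutrophils store in granules. Gm56918 stood at 16.8, 22.1 and 21.6 normalized counts in heart without MSCs and 6.08, 25.3 and 10.8 with them, and at 155 and 133 in blood without MSCs and 143 and 92.7 with them, so that the highest heart value was 25.3 and the lowest blood value 92.7. Its log2 fold change was -2.73 ± 0.47, adjusted p = 0.00178 without and -3.05 ± 0.47, adjusted p = 0.00219 with MSCs, and Lrg1 had -3.19 ± 0.53, adjusted p = 0.00148 and -3.40 ± 0.53, adjusted p = 0.00238 (limma). E230001N04Rik, an intergenic lncRNA 4140 bases from Fkbp5, stood at 42, 13.5 and 8.75 normalized counts in heart without MSCs and 14.9, 27.6 and 4.07 with them, and at 106 and 121 in blood without MSCs and 119 and 93.5 with them. Its log2 fold changes were -2.57 ± 0.67, adjusted p = 0.0141 and -2.89 ± 0.67, adjusted p = 0.0172, while Fkbp5, a chaperone of the glucocorticoid receptor, had 0.49 ± 0.57, adjusted p = 0.524 and -0.80 ± 0.57, adjusted p = 0.362 and was not called (limma). Gm26740, antisense to the NKG2D ligand genes H60b and Raet1e, stood at 75.6, 126 and 150.3 normalized counts in heart without MSCs and 153, 207 and 87.5 with them, and at 396 and 498 in blood without MSCs and 417 and 335 with them, with log2 fold changes of -1.96 ± 0.40, adjusted p = 0.00421 and -1.40 ± 0.40, adjusted p = 0.0380 (limma). Chaserr, which is known to restrain its neighbour Chd2, stood at 143, 155 and 122 normalized counts in heart without MSCs and 167, 172 and 129 with them, and at 353 and 391.8 in blood without MSCs and 335 and 264 with them and had -1.40 ± 0.27, adjusted p = 0.00320 and -0.93 ± 0.27, adjusted p = 0.0407 (limma). It overlaps Chd2 on the same strand, with 505 bases at 99.8% identity to a Chd2 transcript, so its count may take in reads of Chd2.

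The windows from 250 bases before to 50 bases after the annotated starts were searched on both strands for letters of motifs known from myeloid genes. GAGGAAGT, the core bound by PU.1 and other ETS factors, was in 8 of the 81 windows (9.88%), against 2.95% of the windows of all 27906 annotated genes in the table and 3.46% of those tested. A degenerate kappa B motif was in 5 (6.17%, against 5.27% and 6.20%). The AP-1 forms TGACTCA and TGAGTCA were in 1 (1.23%, against 4.83% and 3.82%) and TGACGTCA was in 0 (against 1.99% and 3.16%). A CpG ratio of at least 0.6 was found in 33.3% of the windows, against 38.5% and 62.2%. The 8 windows with GAGGAAGT belong to lncRNAs of both directions, 4930430E12Rik and Gm57414, higher in heart, Gm26740 and Mirt1, lower in heart, and 6530402F18Rik, Gm6634, Gm67564 and Gm19951. Gm26740 and Gm67564 start back to back, so that 1 match lies in both windows. A match is a stretch of letters and not a measured binding site. The windows of 4 lncRNAs whose values the text turns on are given below on GRCm39, read 5′ to 3′ along the strand of the gene, with GAGGAAGT or its reverse complement in capitals.
Mirt1 promoter, chr19:53453242-53453541, minus strand: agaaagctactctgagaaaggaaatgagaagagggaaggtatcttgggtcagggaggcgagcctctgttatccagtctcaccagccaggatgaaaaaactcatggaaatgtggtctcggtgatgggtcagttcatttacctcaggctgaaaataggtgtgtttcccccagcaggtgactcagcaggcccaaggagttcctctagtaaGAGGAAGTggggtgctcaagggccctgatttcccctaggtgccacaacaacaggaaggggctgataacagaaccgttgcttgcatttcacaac
Gm26740 promoter, chr10:22182279-22182578, minus strand: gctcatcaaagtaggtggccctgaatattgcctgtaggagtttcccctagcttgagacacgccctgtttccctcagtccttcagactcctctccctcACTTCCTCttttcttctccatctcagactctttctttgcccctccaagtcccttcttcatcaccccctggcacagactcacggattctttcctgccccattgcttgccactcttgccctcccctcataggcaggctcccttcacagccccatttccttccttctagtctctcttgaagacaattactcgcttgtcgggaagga
4930430E12Rik promoter, chr4:6357481-6357780, minus strand: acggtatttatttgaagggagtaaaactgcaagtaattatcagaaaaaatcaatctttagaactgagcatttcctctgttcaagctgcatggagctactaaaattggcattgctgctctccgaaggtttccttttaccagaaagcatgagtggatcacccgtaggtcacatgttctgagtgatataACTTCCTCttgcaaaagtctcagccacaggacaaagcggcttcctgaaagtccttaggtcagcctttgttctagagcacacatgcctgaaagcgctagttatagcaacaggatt
Gm57414 promoter, chr11:31495482-31495781, plus strand: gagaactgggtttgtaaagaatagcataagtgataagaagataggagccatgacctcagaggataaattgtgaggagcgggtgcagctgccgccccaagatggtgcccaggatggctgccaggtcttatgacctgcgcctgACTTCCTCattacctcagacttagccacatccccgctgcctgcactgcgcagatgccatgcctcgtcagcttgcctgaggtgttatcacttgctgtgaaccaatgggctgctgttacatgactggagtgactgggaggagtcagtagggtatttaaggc

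In Mirt1 the match begins 43 bases before the annotated start, in 4930430E12Rik 64, in Gm57414 109 and in Gm26740 153. Mirt1 is also the only one of the 81 with an AP-1 match in its window.

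Among the 81 lncRNAs, 9 hold an annotated miRNA gene, with 15 miRNA genes between them, and mature sequences were found in RefSeq (table build GRCm38.p6) for 13. Mature miRNAs bind targets through the seed, bases 2 to 8, in capitals here. Shown are both mature sequences of Mir142 and only some of those of the other genes, and Mir1941 of Gm35853 is left out. Among those shown, the sequences tell which hosts carry the same seed. AGCAGCA is shared by both miRNAs of Dleu2, AGCACCA by both of A330023F24Rik, and GAGGUAG by the let-7 miRNAs of 6720427I07Rik and Mir99ahg, while the seeds from Mir142hg, Mir22hg and the remaining Mir99ahg miRNAs are each their own.
mmu-miR-142a-3p: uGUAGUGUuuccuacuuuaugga
mmu-miR-142a-5p: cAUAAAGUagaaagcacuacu
mmu-miR-15a-5p: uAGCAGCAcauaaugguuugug
mmu-miR-16-5p: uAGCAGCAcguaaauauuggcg
mmu-miR-29b-3p: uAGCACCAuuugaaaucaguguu
mmu-miR-29c-3p: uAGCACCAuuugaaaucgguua
mmu-let-7a-5p: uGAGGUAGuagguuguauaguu
mmu-let-7c-5p: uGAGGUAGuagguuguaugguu
mmu-let-7d-5p: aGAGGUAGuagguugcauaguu
mmu-let-7f-5p: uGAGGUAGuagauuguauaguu
mmu-miR-22-3p: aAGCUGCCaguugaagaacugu
mmu-miR-99a-5p: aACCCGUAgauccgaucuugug
mmu-miR-125b-5p: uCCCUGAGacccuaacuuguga

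The counts are of host RNA, and mature miRNAs were not measured. In MI against Blood, 2 of the 9 hosts were higher in heart (Mir99ahg and AU020206) and 5 lower (Mir142hg, Dleu2, A330023F24Rik, Gm35853 and 2310001H17Rik), while Mir22hg and 6720427I07Rik were not called, at a background of 21.2% higher and 13.5% lower. With MSCs, 1 was higher and 3 lower, at a background of 8.23% and 5.85%. Mir99ahg and AU020206 reached the minimum in heart only and Gm35853 in blood only, so their calls are a description.

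Mir142hg, host of the blood-cell miRNA miR-142, stood at 101, 219 and 204 normalized counts in heart without MSCs and 444, 530.4 and 225 with them, and at 1059.8 and 568 in blood without MSCs and 649 and 473 with them. Without MSCs each heart value was under each blood value, and with MSCs the groups overlapped. The log2 fold change was -2.22 ± 0.46, adjusted p = 0.00501 in MI against Blood and -0.56 ± 0.46, adjusted p = 0.441 in MI + MSC against Blood + MSC (limma), and the interaction of MSC and tissue was 1.66 ± 0.66 with an adjusted p of 0.630. Dleu2, host of miR-15a and miR-16, which target cell-cycle and survival genes such as Bcl2, stood at 210.1, 202 and 201 normalized counts in heart without MSCs and 222, 271 and 147 with them, and at 650.0 and 539 in blood without MSCs and 476 and 358 with them. The highest heart value, 270.9, was under the lowest blood value, 358.2, with log2 fold changes of -1.53 ± 0.31, adjusted p = 0.00439 and -0.99 ± 0.31, adjusted p = 0.0553 (limma). A330023F24Rik, host of miR-29b and miR-29c, was lower in heart in both comparisons, with -1.09 ± 0.39, adjusted p = 0.0484 and -1.43 ± 0.39, adjusted p = 0.0317 (limma), and had 67.2, 71.1 and 99.3 in MI and 155 and 181 in Blood. The let-7 host 6720427I07Rik ran from 33.6 to 84.5 over all libraries and was called in no comparison.

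**Figure D4:**
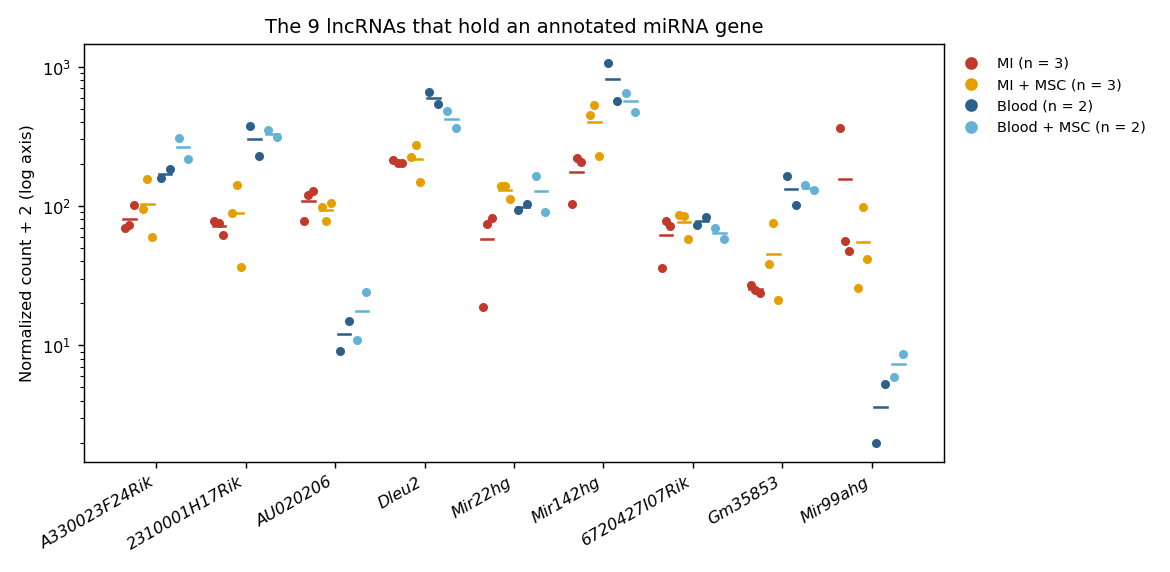
Normalized counts plus 2 (log axis) of the 9 lncRNAs that hold an annotated miRNA gene, with 1 point per library and a bar at the group mean. AU020206 and Mir99ahg lie higher in heart (red and orange), Dleu2, Gm35853, A330023F24Rik and 2310001H17Rik lie higher in blood, and the value of Mir22hg in MI 13 stands below the rest.

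Of the 4 snoRNA hosts, Gas5 holds 10 snoRNA genes and is known to accumulate when growth stops. It stood at 25.2, 75.9 and 73.1 normalized counts in heart without MSCs and 128, 138 and 111 with them, and at 35.3 and 106 in blood without MSCs and 129 and 99.9 with them, with 3 reads in MI 13 and 5 in Blood 21 behind its lowest values. It was called in no comparison, with -0.23 ± 0.51, adjusted p = 0.755 in MI against Blood (limma). AI506816 was higher in heart (2.01 ± 0.53, adjusted p = 0.0144, then 2.44 ± 0.53, adjusted p = 0.0122 with MSCs) and Gm36459 lower in MI against Blood (-2.59 ± 0.56, adjusted p = 0.00591, limma). On the wider list of snoRNA and small RNA hosts, 15 were tested, and 4 were higher and 0 lower in MI than in Blood (Snhg12, Snhg14, Snhg15 and Snhg20), against 21.2% of all genes higher, but these lie under the minimum mean of 50. With MSCs only Snhg15 of the 15 was called higher, against 8.23% of all genes. The fourth host, Gm15832, shares 707 identical bases with Rnf149 at its own locus, so its count is uncertain. Dubr, an intergenic lncRNA first studied in muscle cells, ran from 46.1 to 84 and was called in no comparison.

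Genes of proteins that make or bind these RNAs were counted as lists, by their mRNA levels. Of 10 tested snoRNP proteins, 6 were higher and 0 lower in MI than in Blood, among them Nop56 (2.24 ± 0.41, adjusted p = 0.00247, limma) and Nop58 (1.47 ± 0.38, adjusted p = 0.0130). Of 10 miRNA processing and Argonaute genes, 5 were higher and 0 lower, including Drosha (2.65 ± 0.70, adjusted p = 0.0148) and Dicer1 (2.15 ± 0.48, adjusted p = 0.00665), at a background of 21.2% higher. Of 9 paraspeckle proteins, which assemble on Neat1, 2 were higher and 0 lower. Of 9 genes for factors that form or bind the 3′ ends of Malat1 and Neat1, 4 were higher and 1 lower. Of 15 nuclear exosome genes the counts were 2 and 1, and of 10 nonsense-mediated decay factors 1 and 0. Over all genes 21.2% were higher and 13.5% lower. In MI + MSC against Blood + MSC the 6 lists gave 1 call higher (Nhp2) and 2 lower (Upf2 and Rpp21), at a background of 8.23% higher and 5.85% lower.

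The comparison of MI + MSC with MI asks whether MSCs given under the skin change these RNAs in Ly6G+ cells of the heart. No lncRNA was called (0 of 81, 0.0% of all genes tested), and the lowest adjusted p among the 81 was 0.380 (limma). At an unadjusted p under 0.05, 17 passed, 15 higher and 2 lower with MSCs, against 8.01% of all genes tested, 3.26% higher and 4.74% lower. The median log2 fold change was 0.31 over the 81 and -0.01 over all genes. The groups did not overlap for 15 lncRNAs, 11 higher and 4 lower, where 16.7% of all genes separate, 7.05% and 9.6% by direction. edgeR called 0 of the 81 (0.0% of all genes). DESeq2 called 2, A630001O12Rik and Gm57214 (0.779% of the 9756 genes with an adjusted p), and voom with sample weights 3, these and Gm20186 (2.26%), all higher. A630001O12Rik entered through MI + MSC alone, so its choice favoured its calls. For the 6 lncRNAs with the smallest p, the lowest heart value was that of MI 13, with 1 read for A630001O12Rik, 2 for Gm57214 and 8 for Gpr137b-ps. Without MI 13 and Blood 21, 12 lncRNAs and 956 of 11549 genes had an unadjusted p under 0.05 and 0 lncRNAs were called. The 17 fell to 7 without MI 13, 5 without MI + MSC 15 and 7 without MI + MSC 17, and the median of 0.31 to 0.17 without MI 13 and 0.16 without MI + MSC 17.

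A630001O12Rik, an intergenic lncRNA at chr8:127565957-127579004, plus strand, stood at 8.40, 27.9 and 25.2 in heart without and 155, 202 and 56.3 with MSCs, with 1 read in MI 13. Having entered through MI + MSC alone, it is described without a test. Its log2 fold change was 2.60 ± 0.62 (limma), and 2.11 without MI 13. Its blood values of 63.6 and 13 without and 51.2 and 37.5 with MSCs overlapped both heart groups. Gm57214 lies 127 bases from Zfp36 on the same strand and stood at 16.8, 59.6 and 75.7 in heart without and 279.8, 416 and 78.6 with MSCs. Zfp36 encodes tristetraprolin, which destabilizes cytokine mRNAs. The log2 fold change was 2.24 ± 0.62 for Gm57214 (adjusted p = 0.517 in limma and 0.0220 in DESeq2) and 1.35 ± 0.49, adjusted p = 0.585 for Zfp36. In both lncRNAs MI + MSC 18 lay nearest to MI.

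4833438C02Rik is antisense to Nfkb2, the gene of the NF-kappa B subunit p100, and stood at 8.40, 52.9 and 46.8 in heart without and 113, 138 and 72.5 with MSCs. The 8.40 of MI 13 is 1 read. It too entered through MI + MSC alone, and its log2 fold change with MSCs was 1.81 ± 0.57 against 0.46 ± 0.26, adjusted p = 0.653 for Nfkb2 (limma). The kappa B letters were in 5 of the 81 windows, 6.17% against 6.20% of those tested, so the match is a description. The window of 4833438C02Rik, the only one shown for these letters, carries the motif on the other strand 78 bases before the start, in capitals below.
4833438C02Rik promoter, chr19:46294026-46294325, minus strand: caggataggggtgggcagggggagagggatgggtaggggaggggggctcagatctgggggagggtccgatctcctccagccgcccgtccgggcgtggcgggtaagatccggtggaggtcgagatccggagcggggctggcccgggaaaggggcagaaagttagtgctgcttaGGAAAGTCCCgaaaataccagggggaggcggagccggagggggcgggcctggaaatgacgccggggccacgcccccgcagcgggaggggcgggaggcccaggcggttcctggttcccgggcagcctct

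4930430E12Rik had 1.50 ± 0.47, adjusted p = 0.530 with MSCs, Mir22hg, host of miR-22, 1.42 ± 0.49, adjusted p = 0.545, and Gpr137b-ps 0.76 ± 0.26, adjusted p = 0.542 (limma). Mir22hg stood at 16.8, 72.1 and 79.8 in heart without and 137, 138 and 109.8 with MSCs, and without both shallowest libraries its log2 fold change was 0.73. Gpr137b-ps is uncertain, since 2501 bases of its transcript are 96.2% identical to Gpr137b. Mir142hg had 1.18 ± 0.42, adjusted p = 0.562 and Gas5 1.23 ± 0.46, adjusted p = 0.588 (limma), both without overlap of the heart groups. Kcnq1ot1 was lower with MSCs in each library of MI + MSC than in any of MI, with -0.79 ± 0.36, adjusted p = 0.618 (limma). Cardiomyocyte marker sums were 8600 to 25555 in MI and 3419 to 13460 in MI + MSC, endothelial sums 2572 to 2833 and 650.3 to 1165, and macrophage and monocyte sums 2790 to 8122 and 5834 to 11916. Their part in these lncRNA values was not tested.

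**Figure D5:**
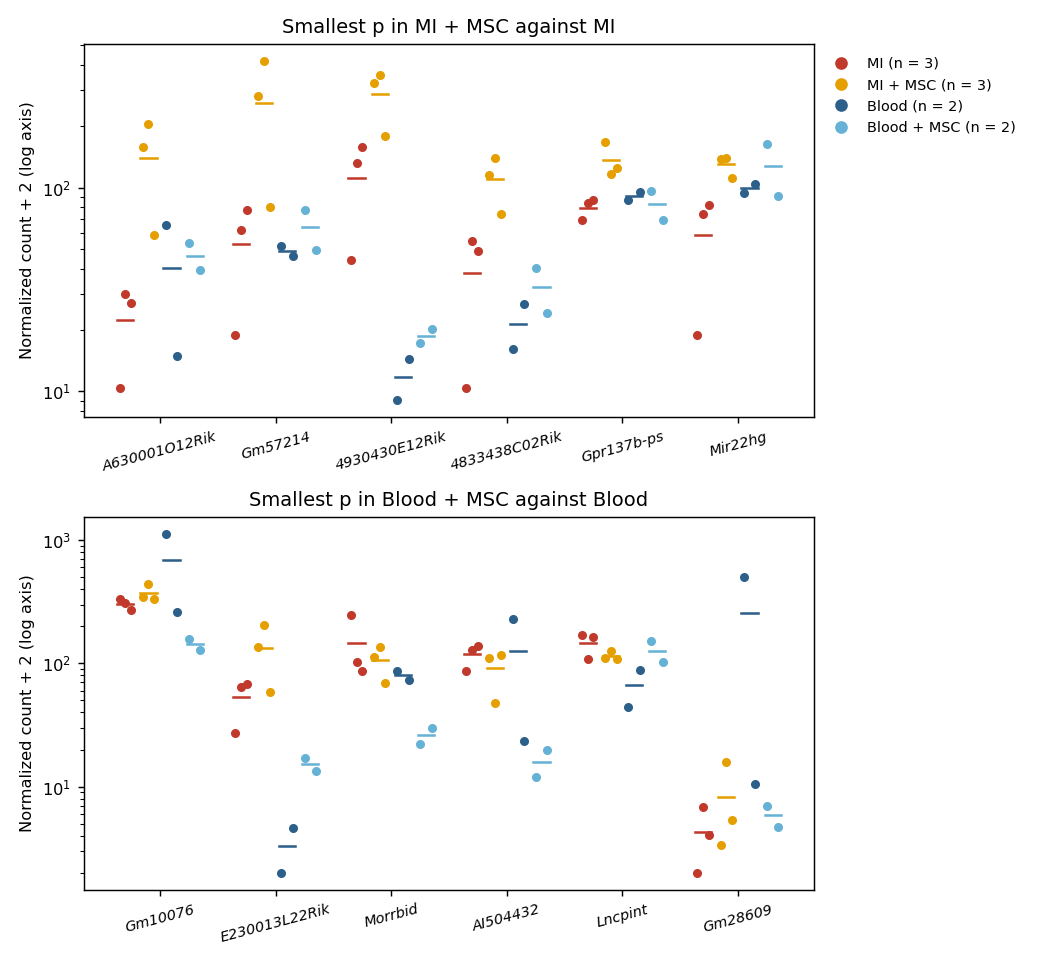
Normalized counts plus 2 (log axis) of the 6 lncRNAs with the smallest p in MI + MSC against MI (upper panel) and in Blood + MSC against Blood (lower panel), in all 4 groups, with 1 point per library and a bar at the group mean. None was called by limma. In the upper panel the lowest red point is MI 13, and in the lower panel the high Blood points of Gm10076, AI504432 and Gm28609 are Blood 21.

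In blood, no lncRNA was called with MSCs (0 of 81, 0.0% of all genes, limma), and 6 passed an unadjusted p under 0.05, 2 higher and 4 lower, against 7.34% of all genes tested, 4.35% higher and 3.0% lower. The median was -0.15 over the 81 and 0.11 over all genes, and its direction turned with 1 library left out, to 0.11 over the 81 (-0.02 over all genes) without Blood 21 and to 0.07 (0.12) without Blood + MSC 24. edgeR and voom called 0 (0.0%) and DESeq2 called 4 (1.55%), Gm10076, AI504432, Gm28609 and Gm6634, all lower. Gm28609 and Gm6634 entered through Blood alone, so their choice favoured their calls. Leaving out Blood 22, so that Blood 21 alone stood for the group, gave 9 calls among the 81 and 1506 among all 11549 genes. Morrbid, an RNA that restrains the death gene Bcl2l11 and prolongs the life of neutrophils, stood at 84.8 and 70.8 in blood without and 20.2 and 27.9 with MSCs. This is -1.62 ± 0.49 on the log2 scale (adjusted p = 0.672, limma), and without both shallowest libraries the value was -1.50. Bcl2l11, 15710 bases away, had 0.21 ± 0.40, adjusted p = 0.933. Morrbid stood at 244, 101 and 84.4 in heart without and 111, 133 and 67.8 with MSCs, and it was called higher in MI + MSC than in Blood + MSC (1.99 ± 0.45, adjusted p = 0.0148, limma), but not in MI against Blood (0.71 ± 0.45, adjusted p = 0.235).

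E230013L22Rik stood at 0 and 2.60 without and 15.2 and 11.4 with MSCs in blood and did not pass the test (2.33 ± 0.66, adjusted p = 0.672, limma). Both Blood values rest on 4 reads or fewer. Lncpint, a target of p53, had 42.4 and 86.4 in blood without and 149 and 101 with MSCs (0.99 ± 0.39, adjusted p = 0.672, limma), and it was higher in MI than in Blood (1.20 ± 0.35, adjusted p = 0.0233), a call lost without both shallowest libraries (0.58, adjusted p = 0.183). Neutrophil marker sums were 47508 to 57257 in Blood and 17665 to 25088 in Blood + MSC, and their part in these values was not tested.

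In the other lncRNAs named for blood, Blood 21 stood apart. Gm28609, antisense to Pik3c2b, stood at 502 there and at 8.45 in Blood 22, 4.99 and 2.69 in Blood + MSC and 0 to 13.8 in heart. Gm6634 stood at 1059.8 in Blood 21 and 4.55 to 16.8 in all other libraries. The smaller of their ratios to the next highest library was 36.4, beside platelet marker sums of 29201 in Blood 21 and 1290 in Blood 22, and the part of platelet RNA in them was not tested. Both entered through Blood alone. The log2 fold change of Gm28609 in MI against Blood was -4.25 ± 1.33 (limma) and -0.99 without both shallowest libraries, where it was not called. AI504432, which starts 886 bases after the potassium channel gene Kcna3 on its strand, stood at 226 and 21.4 in blood without and 9.98 and 17.7 with MSCs (-2.25 ± 0.83, adjusted p = 0.672, limma). Kcna3 had -2.10 ± 0.78, adjusted p = 0.672. Gm10076, the Rpl41-like lncRNA, stood at 1123 and 259 without and 155 and 126 with MSCs (-1.93 ± 0.53, adjusted p = 0.672, limma), a log2 fold change that was -0.88 without Blood 21. Without Blood 21, Hmga2-ps1, Gm28609, Gm6634, Gm56997, Gm36459 and E230001N04Rik fall under the minimum mean.

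Whether MSCs acted differently in heart and blood was tested as an interaction. It was called for 0 of the 81 (0.0% of all genes, limma). At an unadjusted p under 0.05, 7 of the 81 passed. The MSC effect was higher in heart than in blood for 6 and lower for 1, against 7.26% of all genes, 2.36% higher and 4.9% lower. DESeq2, which gave an adjusted p to 16 of the 81, called 1, Gm10076 (0.84% of the 2144 genes with an adjusted p), and edgeR and voom called 0 (0.0%).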

How the data were processed

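RNA-seq was made from Ly6G+ cells of 10 libraries in 4 groups, assigned from their labels. Per the labels and methods, the authors trimmed reads (Trimmomatic), removed duplicates (Picard), mapped them to GRCm39 (STAR), counted them per gene and strand (featureCounts), left out mitochondrial reads and divided by DESeq2 size factors. The deposited signal values are these normalized counts. The table named as raw is equal to them in all 281850 values. In every library 100% of values were whole multiples of 1 read (within 0.001 read), which gave the reads used by edgeR and DESeq2 (alternatives) and depth, 148594 to 8602711 reads per library. Floors and shares cover counting error only.

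Biotypes and positions came from GENCODE M39, which held 27906 of 28185 identifiers and may differ from the authors' release. limma 3.58.1 (R 4.3.3) with a trend was fitted on log2(normalized count + 2), 1 mean per group, for 11549 genes with a mean of at least 10, with Benjamini-Hochberg adjustment over all of them. Fold changes on this scale understate changes of low genes. Errors with ± are standard errors for fold changes and SD for shares. Genes counted as called at an adjusted p under 0.05, given a change of 0.5 or more in size on the log2 scale (no minimum size for the interaction). Shares were compared by exact permutation over libraries (scipy 1.17.1). edgeR 4.0.16, DESeq2 1.42.0 and voom were alternatives, with other pseudocounts, minimums, scalings and left-out libraries. The limma, edgeR, DESeq2 and voom fits were run on simulated reads for the MSC comparisons in heart and in blood only. The heart and blood comparisons, the interaction and the other alternatives were not. Transcripts were compared with coding transcripts by blastn 2.17.0. Named were the 12 lncRNAs with the highest mean, the 8 largest called and non-overlapping changes per heart and blood comparison, the 6 smallest p-values per MSC comparison, role-list members, and annotation classes. The lncRNAs and lists were chosen with earlier results of these data known.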

Additional observations from a re-analysis of the deposited data

Results flagged for a closer look

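In 2 lncRNAs every MI + MSC library lay on one side of MI and every Blood + MSC library on the opposite side of Blood. In heart alone, the groups separated for 16.7% of all genes tested. How many of all genes show the opposed pattern was not counted, so the 2 are a description. Gm10076 stood at 328, 304 and 269 normalized counts in heart without MSCs and 343, 434 and 332 with them, and at 1123 and 259 in blood without MSCs and 155 and 126 with them, a difference of MSC effects (heart minus blood) of 2.22 on the log2 scale with an adjusted p of 0.630 for the interaction (limma), and of 1.17 without Blood 21. DESeq2 called this difference (adjusted p = 0.0375), and edgeR did not (adjusted p = 0.553). Gm57354, an intergenic lncRNA 15 bases from Cpeb4, stood at 25.2, 71.1 and 79.8 normalized counts in heart without MSCs and 122, 112 and 94.2 with them, and at 56.5 and 50.03 in blood without MSCs and 46 and 35 with them, a difference of 1.41 with an adjusted p of 0.630 (limma). Neither difference passed the test in limma.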

How the results depend on the processing

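MI 13 and Blood 21 hold a median of 6 and 16 reads per lncRNA, and blood groups have 2 libraries each. Minimum means of 20 and 100 gave 235 and 29 lncRNAs in place of 81, and leaving out 1 library 76 to 83. Of 2800 refits of the 140 fold changes of 35 named lncRNAs, none of the called ones reversed. A call was lost in 49 refits, over 16 fold changes, and gained in 94, over 27. Only fold changes called in the reported fit could lose a call, and no MSC comparison held one. The refits share most libraries, and many of these lncRNAs were named for large called changes. In MI against Blood the count of called lncRNAs (37) ran from 29 to 40 over the alternatives run. Over all genes the calls (4008) ran from 2490 with TMM scaling to 4588 with library size scaling. In MI + MSC against Blood + MSC (21) it was 41 with edgeR, 39 with DESeq2, 48 with voom, 45 without both shallowest libraries, and 4 (without Blood + MSC 23) to 34 (without Blood 21 or Blood 22) with 1 library left out, with 8 without Blood + MSC 24, 13 without MI + MSC 15 or 18 and 33 without MI 13. In MI + MSC against MI (0) DESeq2 gave 2 and voom 3, and leaving out 1 library 0 throughout. In Blood + MSC against Blood (0) DESeq2 gave 4, and leaving out 1 library 0 to 9 (without Blood 22). For the interaction (0) DESeq2 gave 1, and leaving out 1 library 0 to 6 (without Blood 22). The cause was not tested. The lncRNA share in heart minus blood (0.957 percentage points) was -0.110 over the 81 alone and 1.02 without Malat1 and Neat1, and 0.424 (without MI 13) to 1.15 with 1 library left out. Without Malat1 and Neat1 it was 0.538 without MI 13 and 0.609 without both shallowest libraries, 2 checks chosen after the data were seen. The share difference in MI + MSC against MI was 0.212 without MI 13 and without both shallowest libraries, and -1.49 to 0.212 with 1 library left out. In Blood + MSC against Blood it was -0.198 (without Blood 22) to 0.476 with 1 library left out. TMM scaling moved the median of all genes from 0.09 to -0.50 in MI + MSC against Blood + MSC, from -0.01 to 0.25 in heart with MSCs and from 0.11 to 0.72 in blood with MSCs, and library size scaling moved it from 0.15 to 0.63 in MI against Blood. Relative to the median of all genes, the median of the 81 in MI against Blood lay at -0.79 in the reported fit and with library size scaling at -0.78 with TMM and at -0.36 without both shallowest libraries. Calls in MI against Blood split 13 higher and 19 lower with library size scaling, against 10 and 27, and with TMM calls in MI + MSC against Blood + MSC split 7 and 14, against 9 and 12. Over all genes the same fits split 3775 and 813, against 2452 and 1556, and 503 and 819, against 951 and 676. Leaving out RNAs that overlap ribosomal RNA repeats could not be run, as 0 of 3 were among the lncRNA genes used. No paired analysis was possible because the groups share fewer than 2 replicate numbers.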
